A study of Mus musculus with 6 samples.

Results

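Of the T-box transcription factor genes, 8 were followed in cultured mouse aortic endothelial cells: Tbx1, Tbx2, Tbx3, Tbx4, Tbx5, Tbx15, Tbx18 and Tbx20. They are 8 of the 17 genes that the deposited table annotates as T-box, among 54532 genes in all, and they were picked by symbol with the differences between female and male cells already known. Their levels in the 6 libraries are therefore a description, and no p-value is given for any of the 8. Of the 8, 5 had reads in every library, Tbx5 had reads in male libraries only, and Tbx4 and Tbx20 had 0 counts in all 6, so that 6 passed the filter on low counts.

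The cells were primary cultures from aortas of mice lacking Oct4 in the endothelium, grown untreated in serum with heparin and endothelial growth factors. Every library carries the genotype label Oct4 KO, with 3 libraries from female and 3 from male mice, and the wild-type littermate cells of the study are not analysed here. The Cre line, the strain and the age of the mice are not given in the sources used here, nor is it stated whether libraries of 1 sex stem from different animals or dishes, so p-values here measure only the spread between these libraries, which may be technical. Pou5f1, the gene of Oct4, had 0 counts in all 6 libraries. Total counts ran from 19299742 to 23064738 per library. The endothelial label had little support among 12 endothelial markers. Of these, 10 were under 1 CPM (the depth-scaled read count, over the effective library size) in every library, Emcn, Cldn5 and Robo4 had 0 counts throughout, and the 12 together came to 4.76 to 7.34 CPM in female and 4.99 to 5.68 CPM in male libraries. Cdh5, Kdr, Tek, Tie1, Erg, Vwf and Esam each had at most 16 counts in any library.

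T-box factors bind DNA through a shared domain, the T-box, and set the identity of mesoderm, limb, heart and pharyngeal tissues in the embryo. Tbx2 and Tbx3 act mainly as repressors, Tbx4 and Tbx5 as activators, and these 4 form 2 pairs of neighbouring genes left by an ancient duplication. Tbx1, Tbx15, Tbx18 and Tbx20 belong to another branch, known for the pharyngeal arches and outflow tract (Tbx1), the skeleton and fat (Tbx15), mural cells, epicardium and sinus node (Tbx18) and the heart chambers (Tbx20).

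The coding sequences show how alike the paralogues are, and how far their reads can still be told apart. For each pair of paralogues, the 90 coding bases in which they are most alike within the same reading frame are shown, 5′ to 3′, with the bases at which the pair differs in capitals (GENCODE M21 transcripts, mm10).
Tbx2: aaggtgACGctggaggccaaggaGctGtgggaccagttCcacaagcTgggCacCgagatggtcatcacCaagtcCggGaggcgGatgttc
Tbx3: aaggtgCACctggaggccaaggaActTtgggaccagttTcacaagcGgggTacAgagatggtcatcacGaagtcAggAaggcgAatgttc
Tbx4: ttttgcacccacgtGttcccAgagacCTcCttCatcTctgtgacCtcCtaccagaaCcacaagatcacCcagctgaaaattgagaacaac
Tbx5: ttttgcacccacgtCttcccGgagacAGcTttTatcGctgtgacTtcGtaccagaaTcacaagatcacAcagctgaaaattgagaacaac
Tbx15: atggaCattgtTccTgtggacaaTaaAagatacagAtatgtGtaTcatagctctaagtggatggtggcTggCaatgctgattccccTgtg
Tbx18: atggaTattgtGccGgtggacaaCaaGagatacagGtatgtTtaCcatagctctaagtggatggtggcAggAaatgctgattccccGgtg
Of the 90 bases, 77 were identical between Tbx2 and Tbx3, and 79 in each of the other 2 pairs. The longest identical run in these windows was 14 bases for Tbx2 and Tbx3, 21 for Tbx4 and Tbx5 and 23 for Tbx15 and Tbx18. No stretch of 50 bases in the annotated transcripts of a member occurred in those of another member. Tbx18 was the member with the largest share of such stretches found in other genes, 18.3% of 4668, and 836 of the 852 shared ones lay in D030062O11Rik, a transcript of the opposite strand that overlaps its start. For Tbx3 the share was 1.01%, all of it in the antisense gene Tbx3os1.

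Among the repressors, Tbx3 (ENSMUSG00000018604, mm10 chromosome 5, 119670669 to 119684724) restrains cell cycle inhibitors and marks limb, mammary and cardiac conduction tissue. Female libraries held 166, 152 and 152 CPM of it, male libraries 33.0, 33.7 and 31.9 CPM. The lowest female library lay far above the highest male one, and the log2 fold change, female over male, was 2.25 ± 0.08 (estimate ± SE). Tbx2 (ENSMUSG00000000093, chromosome 11, 85832551 to 85841948), its closest relative, went the opposite way. Female libraries gave 43, 28 and 22 counts (2.08, 1.43 and 1.11 CPM) and male ones 234, 256 and 310 counts (11.1, 12.9 and 12.7 CPM), a log2 fold change of -2.98 ± 0.23. Each male library held more than any female library. Per kilobase of gene model, so that genes can be compared, Tbx3 exceeded Tbx2 by 58.7 ± 15.5 times in female cells and by 1.48 ± 0.13 times in male cells (mean ± SD, n = 3 each).

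Of the activators, Tbx5 (ENSMUSG00000018263, chromosome 5, 119832668 to 119885219), needed for the forelimb and heart, was read in male cells only. It had 258, 197 and 267 counts there (12.2, 9.93 and 10.98 CPM) and 0 counts in each female library. Set against 3 counts per female library, the most that 0 counts leave possible at 95%, the male level of 11.1 ± 1.15 CPM (SD, n = 3) was at least 73.6-fold higher. Tbx4 (ENSMUSG00000000094, chromosome 11, 85886422 to 85916097), the hindlimb and lung relative of Tbx5, was at 0 throughout, and a true level of up to 0.154 CPM could go unseen. In female cells neither activator was detected at this depth.

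In the other branch, Tbx1 (ENSMUSG00000009097, chromosome 16, 18580979 to 18590671), the pharyngeal gene lost in the 22q11 deletion syndrome, stood at 46.2, 48.3 and 58.1 CPM in female against 17.5, 19.4 and 18.96 CPM in male libraries. The sexes did not overlap, and the log2 fold change was 1.45 ± 0.11. Tbx15 (ENSMUSG00000027868, chromosome 3, 99240381 to 99354259), a gene of skeletal and adipose mesenchyme, stood at 18.7, 24.3 and 23.2 CPM against 13.2, 13.8 and 13.6 CPM. Female replicate 1 was the lowest of its sex and still above all male libraries, with a log2 fold change of 0.71 ± 0.14. Tbx18 (ENSMUSG00000032419, chromosome 9, 87702800 to 87731260), a gene of mural and epicardial cells, was the most even of the 6, at 37.9, 40.4 and 38.8 CPM in female against 49.6, 44.2 and 42.7 CPM in male libraries. Its log2 fold change was -0.22 ± 0.10, with the highest female library below the lowest male one. Tbx20 (ENSMUSG00000031965, chromosome 9, 24718138 to 24774303), a gene of cardiac muscle and endocardium, was at 0 in all 6 libraries.

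**Figure D1:**
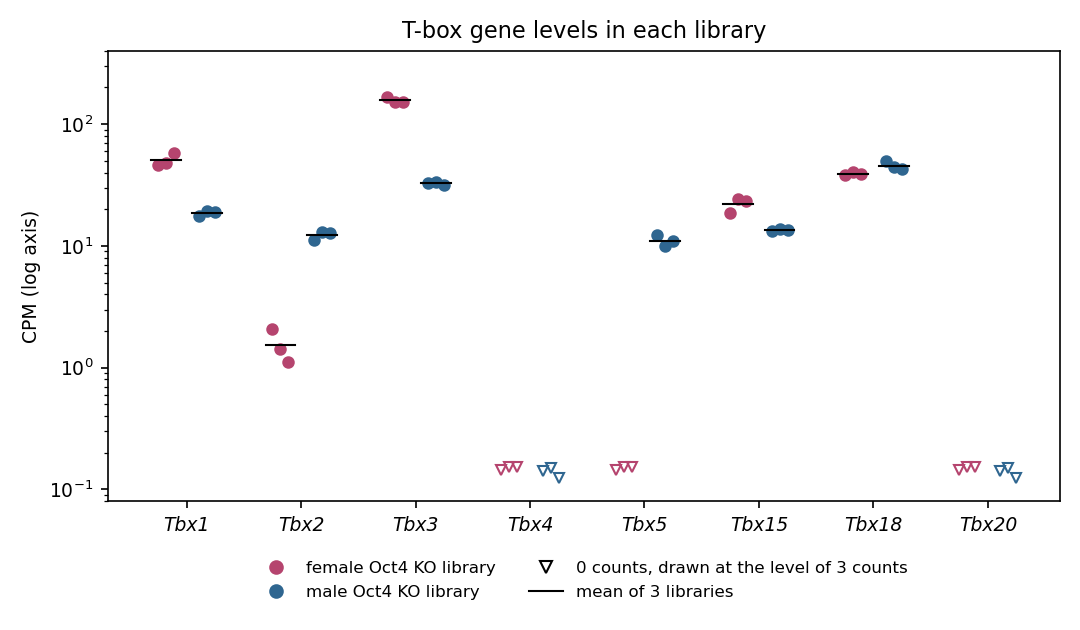
Level of each of the 8 T-box genes in CPM on a log axis, 1 point per library with the mean of each sex as a bar; open triangles mark 0 counts, drawn at the level of 3 counts. Tbx3, Tbx1 and Tbx15 sit higher in the female libraries, Tbx2 and Tbx5 in the male libraries, the Tbx18 points lie close together, and Tbx4 and Tbx20 have no reads.

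By the test used for all genes, 3 of the 6 tested members were past the threshold (edgeR adjusted p under 0.05, here "called") toward female cells, Tbx1, Tbx3 and Tbx15, and 2 toward male cells, Tbx2 and Tbx5, while Tbx18 was not. Of all 14814 genes tested 60.7% were called, with 30.9% toward female and 29.8% toward male cells. Among 964 tested genes annotated as transcription factors of any family the share was 59.2%. The female and male libraries did not overlap for 6 members, against 67.1% of all genes tested. Female libraries lay above for 3 of them (33.9% of all genes) and below for the other 3 (33.2%). Since the members were picked with this contrast known, nothing is read from these shares.

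Per kilobase, the order of the T-box genes differed between the sexes. Tbx3 led in female cells at 23.6 ± 1.21 CPM per kilobase, followed by Tbx1 at 14.5 ± 1.80, Tbx18 at 8.27 ± 0.264, Tbx15 at 5.89 ± 0.797 and Tbx2 at 0.425 ± 0.135 (SD, n = 3), and no neighbours in this order overlapped between libraries. Tbx18 led in male cells at 9.64 ± 0.764 CPM per kilobase. Tbx1 at 5.29 ± 0.284 and Tbx3 at 4.96 ± 0.141 followed and overlapped, as did Tbx15 at 3.60 ± 0.0791 and Tbx2 at 3.38 ± 0.277, and Tbx5 came last of the detected genes at 2.36 ± 0.247. The 8 genes together came to 51.8, 52.1 and 54.2 CPM per kilobase in female against 29.6, 29.3 and 28.7 in male libraries. Of that sum, Tbx3 made up 44.9% ± 3.10 in female and 17.0% ± 0.343 in male cells. Tbx18 made up 15.7% ± 0.650 and 33.0% ± 2.16. The share of Tbx15 overlapped between the sexes, at 11.2% ± 1.43 and 12.3% ± 0.404. Among the 964 transcription factor genes ordered by mean CPM per kilobase, Tbx3 held place 80 in female and 375 in male cells, Tbx1 places 154 and 360, and Tbx18 places 272 and 203.

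**Figure D2:**
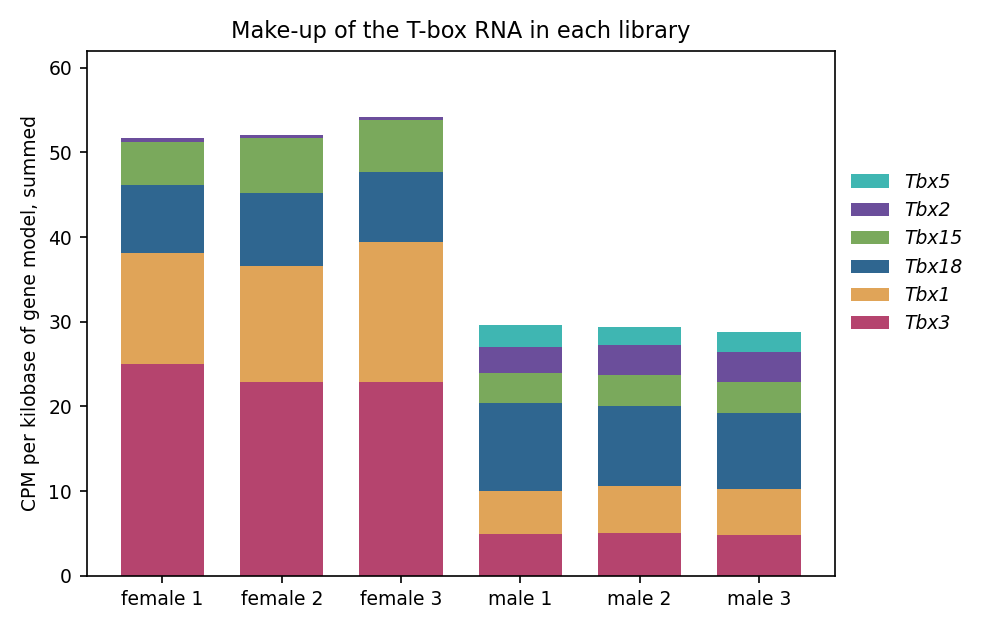
Stacked CPM per kilobase of gene model of the T-box genes in each library; Tbx4 and Tbx20, at 0, add nothing. The female columns reach 51.8 to 54.2 and rest mostly on Tbx3 and Tbx1, while the male columns reach 28.7 to 29.6, with Tbx18 as the largest block and Tbx2 and Tbx5 on top.

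Libraries of 1 sex differed from each other by an amount that varied between members. The coefficient of variation (SD as a share of the mean) was 5.14% in female and 2.85% in male cells for Tbx3, and 3.19% and 7.93% for Tbx18. In female cells it was larger for Tbx1, at 12.4%, and Tbx15, at 13.5%, than in male cells, at 5.37% and 2.19%. It was widest for Tbx2 in female cells, at 31.8%, where the 3 libraries rested on 22 to 43 counts.

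A repressor and an activator gene are linked on each of 2 chromosomes, and in neither case did the linked genes share a pattern. Tbx3 and Tbx5 are both on the plus strand of chromosome 5, with 148 kb between them. Tbx3os1, an antisense transcript whose annotated span (119570130 to 119671365) runs into the start of Tbx3, was read 430, 248 and 322 times in female libraries against 24, 35 and 21 times in male ones. It was called higher in female cells (log2 3.74 ± 0.26, edgeR adjusted p = 1.95e-09). It shares 115 exon bases with Tbx3, 3.63% of its own exons, and with the strand setting of the counting unknown those reads cannot be assigned to either. Gm43050, a long intergenic RNA of the minus strand that lies 748 bases from Tbx5 (119828448 to 119831920), had 0 counts in each female library and 70, 90 and 79 in the male ones. It was called lower in female cells (edgeR adjusted p = 1.68e-07), with the male level at least 24.6-fold higher, and it shares no exon base with Tbx5. Rbm19, the next tested protein-coding gene beyond Tbx5, stood at 21.4 CPM in female and 17.7 CPM in male cells and was not called (log2 0.27 ± 0.14, edgeR adjusted p = 0.103). The 3 tested neighbours within 500 kb thus split into 1 higher, 1 lower and 1 not called.

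**Figure D3:**
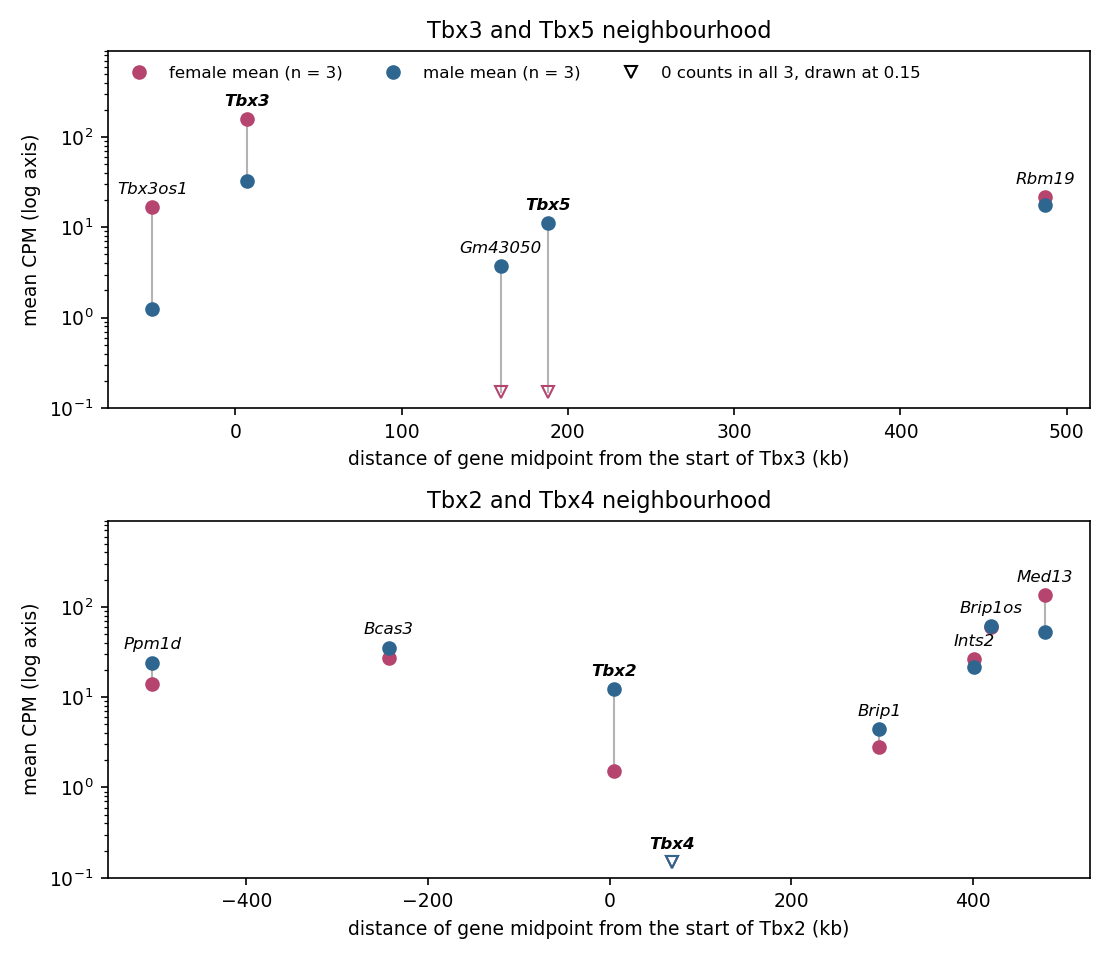
Mean CPM (log axis) of the T-box genes (bold) and their tested neighbours within 500 kb, placed by the distance of each gene's midpoint from the start of Tbx3 (upper panel) or Tbx2 (lower panel). Tbx3 and Tbx3os1 are higher in female cells, Gm43050 and Tbx5 have 0 counts in female cells, Rbm19 is close to even, and Tbx2 stands between Bcas3 and the unread Tbx4.

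Tbx2 and Tbx4 lie 44.5 kb apart on chromosome 11. Of 6 tested neighbours, the phosphatase gene Ppm1d (14.1 against 24.2 CPM, log2 -0.78 ± 0.14, edgeR adjusted p = 0.000184) and Bcas3 (26.8 against 35.3 CPM, log2 -0.40 ± 0.10, adjusted p = 0.0033) were called lower in female cells, while Med13, a Mediator kinase-module gene (134 against 52.8 CPM, log2 1.34 ± 0.11, adjusted p = 2.41e-08) and Ints2 were called higher. Brip1 and Brip1os were not called. Ints2 was near the threshold (log2 0.30 ± 0.11, edgeR adjusted p = 0.0297), and its direction turned with a correction for gene length (log2 -0.08). The call of Ints2 was lost without female replicate 1 or 3 or male replicate 1 or 2 (adjusted p from 0.0552 to 0.0891). The minus-strand gene 2610027K06Rik, which lies 328 bases from Tbx2, was read 2, 1 and 0 times in female libraries against 4, 3 and 16 times in male ones. Most of the male reads came from replicate 3 alone, the gene was too low to test, and it was named after its counts were seen.

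Around Tbx1, 20 neighbours were tested, 3 higher, 10 lower and 7 not called in female cells. The share called was 65%, against 60.7% of all genes tested (30.9% higher and 29.8% lower). Most called genes there went the opposite way to Tbx1. Ranbp1, a nuclear transport gene, was at 41.2 against 74.1 CPM (log2 -0.84 ± 0.09, edgeR adjusted p = 7.99e-07). Trmt2a was lower as well (log2 -0.58 ± 0.09), and the palmitoyltransferase gene Zdhhc8 was higher (log2 0.46 ± 0.08). Next to Tbx15, Wars2, the mitochondrial tryptophan tRNA synthetase gene that lies 1195 bases away, and Zfp697 were both called higher (log2 0.98 ± 0.19 and 0.74 ± 0.14). At Tbx18, the overlapping D030062O11Rik of the opposite strand was read 42, 60 and 56 times in female libraries against 24, 27 and 28 times in male ones. It was called higher (log2 1.12 ± 0.36, edgeR adjusted p = 0.0131), a call lost without female replicate 2 (adjusted p = 0.0509). Because 970 exon bases, 20.6% of those of Tbx18, are shared by both genes, the small difference in Tbx18 is uncertain. The other tested gene at Tbx18, Cep162, was at 15.8 against 12.0 CPM (log2 0.40 ± 0.14) and was at -0.01 after length correction. Its call (edgeR adjusted p = 0.0234) was lost without female replicate 1 or 2 or male replicate 2 or 3 (adjusted p from 0.0555 to 0.0842). At Tbx20, Dpy19l1 was called lower (log2 -0.33 ± 0.08) and Herpud2 and Sept7 higher (0.27 ± 0.08 and 0.30 ± 0.08). The direction of Sept7 turned with length correction (-0.11), and the call of Herpud2 was lost (0.15). Over all 6 loci, 26 of 36 tested neighbours were called (72.2%, against 60.7% of all genes tested), 12 higher and 14 lower. Their median log2 fold change was -0.25, against -0.01 for all genes. With total counts as the only scaling, and with length correction, 7 were higher and 15 lower.

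The start regions of 4 members were in the RefSeq promoter table (GRCm38.p6, the patch release of mm10), and are shown because 2 of these genes were read in every library and 2 in none. Each window runs from 250 bases before to 50 bases after the annotated start, 5′ to 3′, with CG dinucleotides in capitals.
Tbx1 (chr16:18588850-18589149, minus strand): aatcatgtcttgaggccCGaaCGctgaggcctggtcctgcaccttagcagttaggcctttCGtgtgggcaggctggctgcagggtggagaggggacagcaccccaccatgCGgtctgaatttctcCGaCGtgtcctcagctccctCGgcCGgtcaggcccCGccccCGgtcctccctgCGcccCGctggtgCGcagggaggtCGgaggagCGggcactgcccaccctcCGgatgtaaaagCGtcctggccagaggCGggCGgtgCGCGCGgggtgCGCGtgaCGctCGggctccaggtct
Tbx18 (chr9:87731211-87731510, minus strand): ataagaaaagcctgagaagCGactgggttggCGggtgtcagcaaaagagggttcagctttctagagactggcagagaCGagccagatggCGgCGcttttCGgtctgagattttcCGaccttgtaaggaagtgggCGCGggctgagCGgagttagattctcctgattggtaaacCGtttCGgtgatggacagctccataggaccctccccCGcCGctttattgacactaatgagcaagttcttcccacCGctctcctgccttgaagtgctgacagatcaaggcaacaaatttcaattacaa
Tbx4 (chr11:85896515-85896814, plus strand): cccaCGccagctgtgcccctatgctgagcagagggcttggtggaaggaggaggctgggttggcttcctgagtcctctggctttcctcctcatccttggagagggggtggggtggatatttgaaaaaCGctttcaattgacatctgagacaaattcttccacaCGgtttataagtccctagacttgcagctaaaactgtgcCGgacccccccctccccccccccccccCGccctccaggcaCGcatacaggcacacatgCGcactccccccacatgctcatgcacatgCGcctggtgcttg
Tbx20 (chr9:24774254-24774553, minus strand): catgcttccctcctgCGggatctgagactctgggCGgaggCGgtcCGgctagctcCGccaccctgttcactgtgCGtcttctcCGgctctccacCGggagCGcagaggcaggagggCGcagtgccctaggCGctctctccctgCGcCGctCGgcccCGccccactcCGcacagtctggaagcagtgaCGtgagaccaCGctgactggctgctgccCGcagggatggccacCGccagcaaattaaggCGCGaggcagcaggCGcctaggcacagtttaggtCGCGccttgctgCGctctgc
The printed windows of Tbx1 and Tbx20 each held 26 CG dinucleotides in 300 bases, more than 83.1% of the 32851 promoters in the table. Tbx1 was read in all libraries and Tbx20 in none. A further annotated start of Tbx1, at the outer end of its span, held 16. Tbx18 held 15 and Tbx4 held 8, with a median of 7 over all promoters. The printed window of Tbx1 and the window of Tbx4 lie at starts inside the annotated spans of these genes, while those of Tbx18 and Tbx20 lie at the outer start. At the outer starts, the read genes Tbx1 and Tbx18 held 16 and 15 CG dinucleotides and the unread Tbx20 held 26. Tbx4 had no window at its outer start, so nothing is read from so few genes. Tbx2, Tbx3, Tbx5 and Tbx15 were not in the table.

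The remaining 9 T-box genes were nearly silent apart from Mga and, at a low level, Tbx6. Mga, a large factor that also carries a helix-loop-helix domain and pairs with Max, averaged 115 ± 16.4 CPM in female cells against 57.2 ± 8.65 CPM and was called higher (log2 1.00 ± 0.12, edgeR adjusted p = 1.18e-06). Tbx6, the gene of the presomitic mesoderm, was at 1.94 ± 0.146 and 2.52 ± 0.402 CPM and was not called (log2 -0.37 ± 0.32, edgeR adjusted p = 0.331). Tbxt, which the table lists as T, Tbx19, Tbx21 and Eomes had 0 counts in all libraries. Tbx10, Tbx22 and Tbr1 had 5, 1 and 7 counts over all 6 libraries and were not tested.

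Partners and cofactors of T-box proteins differed most among the tissue-restricted factors. Of 34 listed genes 22 were tested, with 6 higher, 8 lower and 8 not called in female cells. The share called was 63.6%, against 60.7% of all genes tested, and the median log2 fold change was -0.07. With length correction 5 were higher and 11 lower. Gata4, the zinc-finger partner of Tbx5 in the heart, had 0 counts in each female library and 68.4 ± 4.197 CPM in male cells, at least 455-fold higher (edgeR adjusted p = 2.02e-14). Tcf21, a factor of epicardium and fibroblasts, was likewise unread in female cells and at 21.2 ± 0.864 CPM in male cells, at least 141-fold higher (adjusted p = 3.66e-12). Hand2, another heart and limb factor, followed them, with 64, 42 and 66 counts in the male libraries and none in the female ones (at least 17.5-fold, adjusted p = 9.34e-07). Isl1, a LIM factor of the second heart field, was the reverse. Female libraries gave 351, 344 and 235 counts and each male library 0, at least 111-fold higher (adjusted p = 7.78e-11). Gata6 was lower in female cells, at 43.7 ± 1.10 against 92.9 ± 7.69 CPM (log2 -1.09 ± 0.09). The corepressor genes Tle1 (70.1 ± 2.26 against 26.5 ± 2.20 CPM, edgeR adjusted p = 1.37e-09) and Tle4 (14.3 ± 1.48 against 4.89 ± 0.819 CPM) were higher. Tle2 was lower, at 40.74 ± 9.314 against 55.65 ± 2.511 CPM (log2 -0.449 ± 0.1285, edgeR adjusted p = 0.006085), and Tle3 was even at 114 ± 4.42 and 114 ± 11.3 CPM. Nkx2-5, Gata5, Hand1, Myocd, Sall1 and Ripply2 had 0 counts in all libraries. Hand2, Gata6, Tle2, Tle3 and Tle4 were named after their values were seen.

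Signals that act upstream of T-box genes in the embryo divided by ligand. Of 28 listed genes 25 were tested, with 14 higher, 6 lower and 5 not called. The share called was 80%, against 60.7% of all genes tested, and the median log2 fold change was 0.27. With length correction 13 were higher and 9 lower. Bmp2 averaged 245 ± 17.1 CPM in female against 30.5 ± 3.72 CPM in male libraries (log2 3.01 ± 0.10, edgeR adjusted p = 1.22e-13). Bmp4, a BMP ligand like Bmp2, was read 4, 0 and 0 times in female libraries against 219, 322 and 274 times in male ones (edgeR adjusted p = 6.72e-10). Wnt5a, a non-canonical Wnt ligand, was at 102 ± 5.11 against 8.37 ± 1.79 CPM (log2 3.59 ± 0.13, adjusted p = 2.98e-13). Foxf1, a forkhead factor of splanchnic mesoderm, was at 1.12 ± 0.1304 against 37.9 ± 4.04 CPM (log2 -5.08 ± 0.17, adjusted p = 1.72e-13). The retinoic acid receptor genes Rarb (15.5 ± 2.42 against 2.98 ± 0.382 CPM) and Rarg (212 ± 16.7 against 106 ± 8.57 CPM) were higher, and Shh, the ligand upstream of Tbx1 in the pharynx, had 0 counts in all libraries. The receptor genes were named after their values were seen.

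Genes reported elsewhere as T-box targets moved in both directions. Of 25 listed 16 were tested, with 7 higher, 6 lower and 3 not called. The share called was 81.2%, against 60.7% of all genes tested, and the median log2 fold change was 0.03. Fgf10, a limb and lung growth factor gene activated by Tbx4 and Tbx5 in the embryo, averaged 207 ± 7.09 CPM in female cells against 0.719 ± 0.459 CPM in male ones (log2 8.10 ± 0.18, edgeR adjusted p = 1.68e-15). Gja1, the connexin 43 gene that Tbx2 and Tbx3 repress in the heart, was at 1276 ± 65.1 against 171 ± 8.05 CPM (log2 2.90 ± 0.08, adjusted p = 1.51e-14). Flt4, VEGF receptor 3 and a target of Tbx1 in lymphatic cells, was at 10.05 ± 1.15 against 1.02 ± 0.115 CPM (log2 3.29 ± 0.24, adjusted p = 3.70e-09). Id2, an inhibitor of helix-loop-helix factors activated by Tbx5, was at 11.7 ± 0.905 against 29.9 ± 2.35 CPM (log2 -1.35 ± 0.13, adjusted p = 9.12e-08). The cell cycle inhibitor genes repressed by Tbx2 and Tbx3, Cdkn2a (59.9 ± 6.62 against 104 ± 6.55 CPM, log2 -0.80 ± 0.09) and Cdkn1a (193 ± 7.70 against 240 ± 4.86 CPM, log2 -0.32 ± 0.07), were lower in female cells, and were named after their values were seen. Nppb, Hcn4 and Fgf8 had 0 counts in all libraries. Whether any T-box factor acts on these genes in these cells was not tested.

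The T-half site AGGTGTGA, the core to which T-box domains bind, was searched on both strands (reverse complement TCACACCT). Among the same 300-base windows 419 of 32851 held it (1.28%), or 399 of 27025 genes (1.48%). Of the 15 target genes found there, 2 held it, Cdkn1a and Nppa, which are shown with the site in capitals. Some marker lists held it as often, with 2 of 9 adipocyte genes, 2 of 12 cardiomyocyte genes (Nppa among them) and 1 of 8 endothelial genes. No gene of the fibroblast (7), smooth muscle (7), pericyte (6), mesothelial and epicardial (6), leukocyte (6) or cartilage and limb mesenchyme (7) lists held it. Nor did any of the 23 partner, 20 upstream input or 8 other T-box genes found there.
Cdkn1a (chr17:29093519-29093818, plus strand): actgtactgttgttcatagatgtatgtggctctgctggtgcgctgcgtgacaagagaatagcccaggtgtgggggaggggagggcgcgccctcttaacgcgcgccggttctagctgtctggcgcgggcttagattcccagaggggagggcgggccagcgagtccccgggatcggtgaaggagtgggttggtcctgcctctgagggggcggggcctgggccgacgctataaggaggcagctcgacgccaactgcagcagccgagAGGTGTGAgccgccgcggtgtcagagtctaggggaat
Nppa (chr4:148000472-148000771, plus strand): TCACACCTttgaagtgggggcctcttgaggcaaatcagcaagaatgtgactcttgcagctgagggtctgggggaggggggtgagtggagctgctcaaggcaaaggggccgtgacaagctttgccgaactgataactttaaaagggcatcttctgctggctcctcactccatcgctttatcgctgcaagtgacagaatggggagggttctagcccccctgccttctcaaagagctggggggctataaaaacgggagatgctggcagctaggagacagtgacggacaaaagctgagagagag
Cdkn1a holds the site 13 bases after its start, and Nppa, the natriuretic peptide gene of the atria, 250 bases before it. Cdkn1a was read in all libraries, whereas Nppa had 1 count in a female library and none elsewhere. None of the 4 member genes in the table held these letters in the window.

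**Figure D4:**
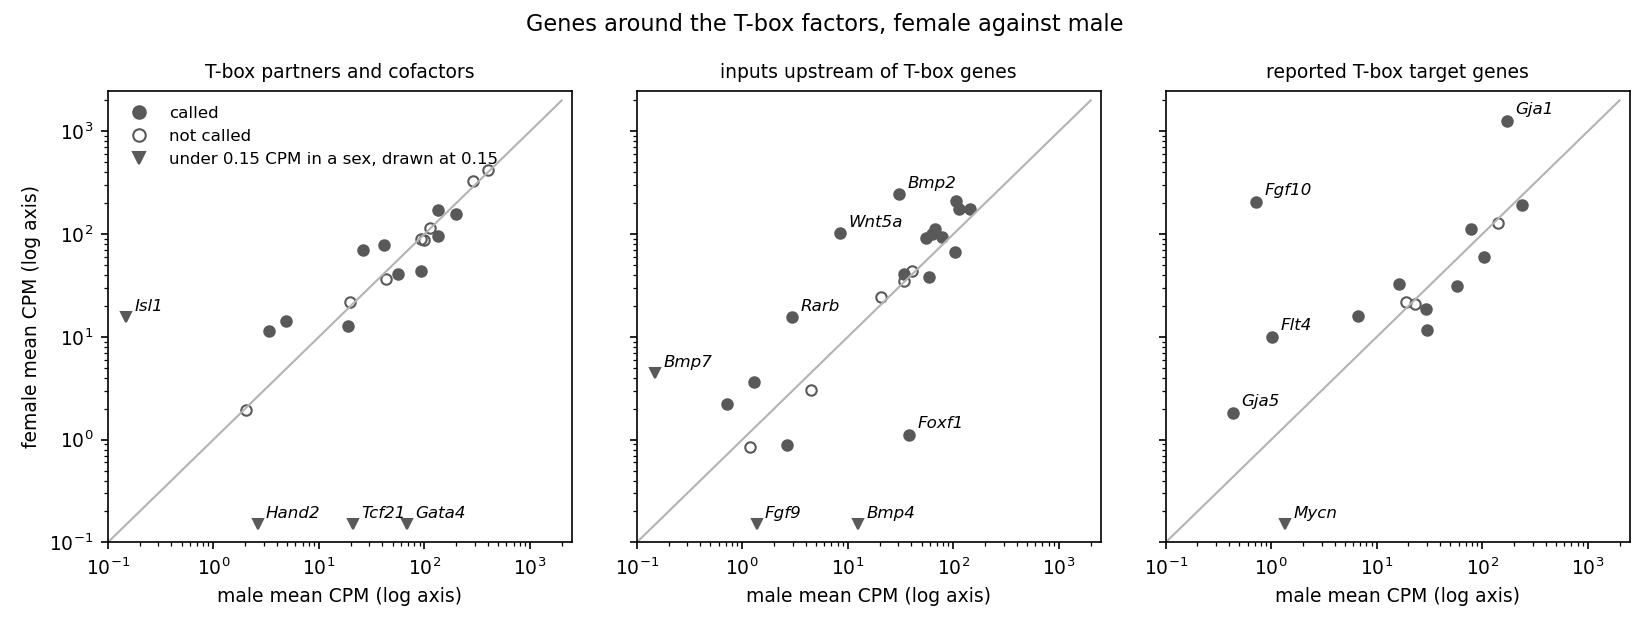
Mean CPM in female against male cells (log axes, n = 3 libraries each) for tested genes of 3 lists; filled points were called, open points were not, and triangles are under 0.15 CPM in a sex and drawn at 0.15. Points on the grey line are equal; Isl1, Bmp2, Wnt5a, Fgf10 and Gja1 lie above it, and Gata4, Tcf21, Hand2, Bmp4 and Foxf1 below it.

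Markers of other cell types that use T-box genes were read from fixed lists, and their part in the T-box differences was not tested. Calls in these lists stand beside a share of 60.7% called over all genes tested. Of 12 fibroblast markers 9 reached 10 CPM in every library, with summed levels of 15370 to 17290 CPM in female and 7259 to 7916 CPM in male libraries (7 higher, 3 lower and 1 not called of 11 tested). The higher female sum rested mostly on Dcn, at 6375 ± 448.5 against 442.1 ± 58.66 CPM. Lum and Pi16 were also among the higher genes. Fbln1, at 70.93 ± 8.71 against 595.8 ± 45.38 CPM, Mfap5 and Col1a2 were lower, and Col1a1 was not called. For 10 cartilage and limb mesenchyme genes the sums were 1106 to 1236 and 501 to 555 CPM (1 higher, Prrx1, 3 lower, Col2a1, Msx1 and Prrx2, and 2 not called), and Acan, Lmx1b and Pitx1 had at most 2 counts in all. The higher female sum of this list rested on Prrx1, at 972.7 ± 73.01 against 274.7 ± 20.58 CPM. For 9 pericyte genes the sums were 586 to 609 and 769 to 802 CPM (5 higher, 3 lower, median log2 fold change 1.35). The higher male sum there rested on Rgs5, at 0.756 ± 0.456 against 256 ± 10.1 CPM, and on Pdgfrb, at 315 ± 15.8 against 464 ± 26.2 CPM, while Cspg4 was at 108 ± 12.7 against 3.19 ± 0.233 CPM and Anpep at 146 ± 9.39 against 38.1 ± 4.66 CPM. For 10 smooth muscle genes they were 63.6 to 68.9 and 160 to 174 CPM, with Synpo2 higher, 4 lower (Smtn, Acta2, Lmod1, Myl9) and Tagln not called. For 10 mesothelial and epicardial genes they were 49.2 to 52.9 and 49.0 to 52.4 CPM, where Bnc1 was higher, Krt19 and Cldn15 lower and Aldh1a2 not called, Msln, Upk3b and Lrrn4 were at 0, and Upk1b, Wt1 and Krt8 had at most 16 counts in any library. Cardiomyocyte genes were nearly unread, with sums over 12 genes of 0.773 to 1.93 and 1.41 to 3.56 CPM, 0 counts of Myh6, Myh7 and Myl7, Tnni3 lower and Ttn not called. The Tnni3 call (edgeR adjusted p = 0.0272) was lost without female replicate 1 or 2 or male replicate 1 or 3 (adjusted p from 0.0571 to 0.171). Tnnt2, Actc1, Ryr2, Myl2, Pln and Mybpc3 had at most 8 counts in any library. For 11 adipocyte genes the sums were 44.3 to 46.4 and 65.9 to 78.4 CPM (2 higher, Cd36 and Plin4, and 4 lower, Pparg, Retn, Fabp4 and Lipe). For 9 leukocyte genes they were 70.3 to 86.0 and 77.3 to 94.1 CPM, with Ptprc at 0, Cd14 and Cd68 higher, Lyz2 lower and Csf1r not called, though it was without male replicate 2 (edgeR adjusted p = 0.049). Of the 2 endothelial genes that could be tested Pecam1 was lower (0.723 ± 0.292 against 1.57 ± 0.351 CPM, edgeR adjusted p = 0.0486, 0.0626 to 0.201 with any 1 of the 6 libraries left out) and Egfl7 was not called, though it was without female replicate 2 (adjusted p = 0.0496). In bulk RNA, fewer cells of a type and less RNA per cell cannot be told apart.

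For each read member, the 2 genes whose log2 CPM followed it most closely over the 6 libraries were taken from 10050 autosomal protein-coding genes, by the root mean square distance after centring. Tbx3 was followed by Ptges, a prostaglandin E synthase gene (878 ± 32.5 against 182 ± 5.74 CPM, distance 0.0261), and Mmp3 (0.0596). Tbx1 was followed by Tom1l1 (0.0639) and Mertk (0.069), Tbx15 by Evi2a (0.0373) and Tpm1 (0.0653), and Tbx18 by Amdhd2 (0.0184) and Pak1ip1 (0.0252). Tbx2 was followed by Pik3c2b (0.132) and Boc (0.172), and Tbx5 by Fndc5 (0.255) and Wisp2 (0.264). The 6 libraries form 2 groups, so a small distance says mainly that the difference between the sexes was of similar size.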

How the data were processed

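Per the submitters' processing notes, the mouse build was mm10 and the tools were HISAT2 2.0.5, an aligner, and featureCounts 1.5, a read counter. The deposited table holds raw counts per gene for 6 libraries, not normalised by the authors. The annotation release, strand setting and treatment of multi-mapping reads are not given in the sources used here. The coordinates and lengths of all 8 members were identical in GENCODE M21. The members, lists and tests were chosen with earlier results of these data known.

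The quasi-likelihood test of edgeR 4.0.16 (R 4.3.3) was run two-sided on the counts with TMM factors, its default low-count filter and a single term for sex, with Benjamini-Hochberg adjustment over all 14814 genes tested. The SE of a log2 fold change is its size over the root of the F statistic, and with few counts it can understate the error. CPM used the effective library size. A count of 0 allows up to 3 counts per library (0.123 to 0.154 CPM). Intervals and limits cover counting error only. Named genes were all members, up to 4 genes per list or locus with the smallest adjusted p, every gene with a count in lists with 5 or fewer tested, and for each member with a mean of at least 5 CPM the 2 genes most alike (prior count 2). Alternatives were DESeq2 1.42.0, other scalings and filters, a length correction, a replicate block and leaving out each library. A gene that the naming rule picks is not reported here.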

Additional observations from a re-analysis of the deposited data

How the results depend on the processing

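Over 13 alternatives (DESeq2, upper quartile factors, total counts only, no low-count filter, a mean of at least 5 CPM, length correction, a replicate block and each library left out), the 6 read members kept their direction. The log2 fold change ranged from 1.33 to 1.55 for Tbx1, -3.26 to -2.79 for Tbx2, 2.07 to 2.28 for Tbx3, 0.59 to 0.82 for Tbx15 and -0.34 to -0.16 for Tbx18. The log2 bound of Tbx5 ranged from -6.32 to -6.13. The number of members called was 5 or 6, depending on Tbx18, and 6 did not overlap under each. Total counts alone moved the median of all genes from -0.01 to -0.13 on the log2 scale, and the calls over all genes went from 4580 higher and 4413 lower to 3956 and 5294. The total calls of each pathway list and of the neighbours stayed within 1.5 times the main value, but the neighbours called higher went from 12 to 7 with length correction and with total counts alone.

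Fold changes rose with gene length across genes (Spearman rho 0.38 over 10812 genes, which are not independent). The length correction was 0.18 for Tbx3 and between -0.10 and 0.02 for the other read members. It turned the log2 fold change of Cep162 to -0.008, of Ints2 to -0.076, of Sept7 to -0.11 and of Ttn to -0.73, and total counts turned that of Aldh1a2 to -0.027. Besides these, the calls of D030062O11Rik, Herpud2, Pecam1 and Tnni3 were lost under some alternatives, and Csf1r, Egfl7 and Aldh1a2 were called under some.

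Same-numbered female and male libraries did not deviate together (correlations -0.0164, -0.104 and -0.153 of their deviations from the group means), so the numbers were not taken as pairs. With the replicate block 8525 genes were called in place of 8993, and 5 members, as without it. Tbx2 in female cells, at 22 to 43 counts, is the least precise of the read members.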
